A study of Drosophila melanogaster with 8 samples.

Results

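The comparison set 2 arrays of L57 cells exposed to juvenile hormone III (JH III) for 6 h against 2 arrays of L57 cells exposed for 3 h, 4 of the 8 arrays of the series, with both groups at 1 µM JH III and with DMSO left out of the contrast. L57 is a Drosophila melanogaster cell line grown in flasks in serum-containing medium, and the labels name no cell type for it. The other 4 arrays, 2 of DMSO-treated cells (the source label of 1 of them also mentions embryos) and 2 of cells at 12 h of 1 µM JH III, do not enter the contrast itself: they added to the estimate of the spread between replicates and to the filter on dim probe sets, DMSO served to choose the early responders described last, and the values of both groups are given beside those of the main genes. The labels do not say when the DMSO cells were harvested, and no DMSO culture is labelled for a particular hour, so time in culture and time with hormone cannot be told apart between 3 h and 6 h.

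Juvenile hormones are sesquiterpenoids that hold insect larvae in the larval state and later act in reproduction. In Drosophila they bind the bHLH-PAS proteins Met and gce, which work with the coactivator tai and switch on genes such as Kr-h1, a zinc finger repressor of metamorphic genes. The comparison of the early times asks which transcripts differed between 3 h and 6 h of exposure and how close the others were.

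Each value is a MAS5 signal, the brightness of a probe set on a linear scale as deposited. Differences were taken as log2 of the signal plus 25, written here as log2 differences of 6 h minus 3 h with the standard error (SE) of the fit, and a fold is the same difference unlogged, which understates the change of dim genes. Of 13966 probe sets, 10815 were readable on both 6 h arrays. Stretches of the second 6 h replicate, 3151 probe sets (22.5% of the table), held zeros or impossible values and were treated as missing. Of these, 2611 were not dim, out of 8380 such probe sets, and the shares given below do not cover them. After dim probe sets were left out, 5769 were tested, of which 5126 carried 1 symbol and stood for 4725 genes, 167 carried several and 476 none. The labels do not say that replicates were separate cultures, so the p-values measure the spread between these arrays, and with 2 arrays a group the number of arrays limits the precision: an exact permutation test of 2 against 2 could not go below p = 0.333.

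Median signals of probe sets with a value on every array were 85.1 and 81.8 at 3 h and 81.4 and 86.0 at 6 h. The spiked hybridization controls differed by -0.09 and the ratio of 3′ to 5′ actin control probe sets by -0.00080 (log2), with overlapping arrays. The 3′ to 5′ ratio (log2) of eIF-4a was 1.04 and 0.91 at 3 h and 0.66 and 0.84 at 6 h, and that of Gapdh was 1.15 and 1.08 at 3 h and 1.21 and 1.19 at 6 h. For both of these controls the groups did not overlap, and their part in the differences below was not tested. The summed signal of 17 readable hemocyte markers was 51621 and 54050 at 3 h and 51148 and 53622 at 6 h, among them Hml, Pxn and Nplp2, whereas NimC1, eater and lz were dim. The sums of neuronal markers (459 to 575 over 10 probe sets) and fat body markers (304 to 425 over 5 probe sets) were low at both times. Muscle markers summed to 346 and 286 at 3 h and to 385 and 432 at 6 h over 12 probe sets, and their part in any difference was not tested.

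Few probe sets were called between the early times, which with 2 arrays a group does not show that few genes differed. E(spl)mbeta-HLH and GstE1 rose from 3 h to 6 h in limma with Benjamini-Hochberg adjustment at 0.05, and no probe set fell at that setting. Lower calls did appear at others: 6 of 12 after quantile normalization, 4 of 8 with a constant of 100, 15 of 33 with a stricter filter on dim probe sets (the 60th percentile), and 1 of 2 when a 6 h array was left out (ATP7 without the first replicate, cpa without the second), so each of those calls set 1 array against 2. The 2 calls of the reported setting are 0.0347% of the 5769 tested. At an unadjusted p under 0.05 there were 719 probe sets (12.5%), 346 higher and 373 lower at 6 h, and 34 reached an adjusted p under 0.1, 19 of them higher and 15 lower. Both 6 h arrays lay above both 3 h arrays for 1259 probe sets (21.8%) and below both for 1275 (22.1%).

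E(spl)mbeta-HLH encodes a bHLH repressor of the Enhancer of split complex, many of whose genes are targets of Notch signalling. Its signal was 244 and 240 at 3 h and 807 and 968 at 6 h, so that each 6 h array was far above each 3 h array. DMSO cells gave 553 and 601 and 12 h cells 405 and 416, which places 3 h as the lowest and 6 h as the highest of the 4 groups. The log2 difference was 1.77 ± 0.13 (SE, n = 2 arrays a group), a 3.41-fold rise with an adjusted p of 0.00107. With the 4 arrays of 3 h and 6 h alone, the adjusted p was 0.0469, just under the threshold. E(spl)mbeta-HLH passed the threshold under all 19 alternative settings, with differences from 1.53 to 1.90.

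GstE1, a glutathione S-transferase of the epsilon class that conjugates glutathione to lipid peroxidation products and xenobiotics, gave 4143 and 4223 at 3 h and 6261 and 6139 at 6 h. Its replicates lay close together and the groups were well apart, while DMSO cells (4479 and 4459) and 12 h cells (5114 and 4592) lay between. The rise was 0.56 ± 0.07 (log2, 1.48-fold, adjusted p = 0.0497). Its size barely moved with the settings (0.55 to 0.58), but the call stood under only 6 of 19 and was lost without either 3 h array (adjusted p of 0.221 and 0.265), either 6 h array (0.115 and 0.149) or either DMSO array (0.129 and 0.129).

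The other 10 of the 12 genes named as higher at 6 h followed, with adjusted p-values of 0.0569 to 0.0921, and none of them passed. CG32687 had the largest difference of all probe sets. Its signal was 23.6 and 18.9 at 3 h and 181 and 164 at 6 h, beside 142 and 132 in DMSO cells and 30.2 and 35.8 at 12 h. On this probe set the signal was low at 3 h and 12 h and higher in DMSO and at 6 h, with no overlap between those pairs of groups. The log2 difference was 2.09 ± 0.30 (adjusted p = 0.0569). A second, brighter probe set of the gene differed by 1.90 ± 0.47 between 6 h and 3 h (adjusted p = 0.16), and on it DMSO (135 and 230) and 12 h (144 and 44.7) overlapped. The difference of 2.09 was 1.17 with a constant of 100 and 2.97 with a constant of 1, since its 3 h signals lie below the added 25.

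The other 9 were brighter and differed by at most 1.52-fold. puml, a lipase-like hydrolase of the family of ABHD proteins, gave 2681 and 2681 at 3 h and 3620 and 3675 at 6 h (log2 difference 0.44 ± 0.06, adjusted p = 0.0569). ref(2)P, the fly p62 protein that brings cargo to autophagosomes, gave 1344 and 1265 at 3 h and 1835 and 1803 at 6 h (0.47 ± 0.08, adjusted p = 0.0884). cu (curled), the fly counterpart of Nocturnin, gave 1268 and 1180 at 3 h and 1728 and 2019 at 6 h (0.60 ± 0.11, adjusted p = 0.0921). All 3 were highest at 6 h among the 4 groups, with DMSO means of 2286, 1034 and 1141 and 12 h means of 2687, 1230 and 1249.

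GlyRS, the enzyme that charges glycine tRNA, gave 4138 and 4338 at 3 h and 5608 and 5283 at 6 h (0.36 ± 0.07). Dgp-1, a GTPase related to translation elongation factors, gave 3284 and 3280 at 3 h and 4117 and 4278 at 6 h (0.35 ± 0.06). CG1440 (0.58 ± 0.09), CG7737 (0.60 ± 0.10), CG2765 (0.50 ± 0.09) and CG10383 (0.44 ± 0.07) completed the group. A second probe set of CG7737 differed by 0.33 ± 0.14 (adjusted p = 0.367).

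**Figure D1:**
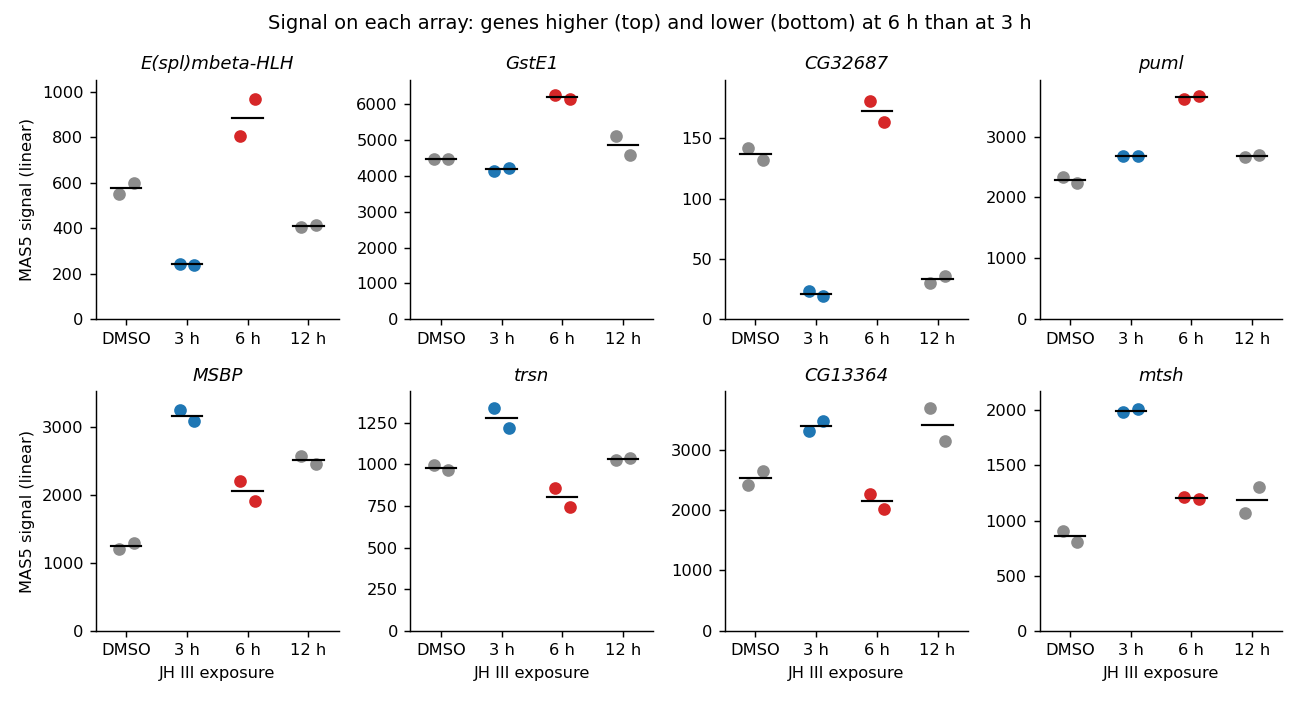
MAS5 signal (linear axis from 0) on each array for 4 genes higher and 4 genes lower at 6 h than at 3 h. Points are arrays (blue 3 h, red 6 h, grey DMSO and 12 h) and black lines are means of 2 arrays. Only E(spl)mbeta-HLH and GstE1 passed the test. In each panel the 6 h arrays lie apart from the 3 h arrays, as the choice of genes required.

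The 12 genes named as lower at 6 h had adjusted p-values of 0.0569 to 0.0939 and differences of -0.91 to -0.37 (1.29 to 1.88-fold), and none passed the threshold. Several of them stood above DMSO at 3 h and closer to it at 6 h. MSBP, a membrane steroid binding protein, gave 3254 and 3083 at 3 h, 2200 and 1917 at 6 h, 1197 and 1296 in DMSO cells and 2568 and 2452 at 12 h. Its log2 difference was -0.62 ± 0.09 (adjusted p = 0.0569), so that the 6 h level lay between those of DMSO and 3 h. mtsh (mitoshell) gave 1984 and 2009 at 3 h and 1212 and 1197 at 6 h, beside a DMSO mean of 859 and a 12 h mean of 1190 (-0.72 ± 0.11, adjusted p = 0.0569).

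pAbp, the protein that coats the poly(A) tail, was the brightest of the named genes. It gave 16950 and 15308 at 3 h, 11424 and 12702 at 6 h, a mean of 6221 in DMSO cells and of 11915 at 12 h, a difference of -0.42 ± 0.08 between 6 h and 3 h (adjusted p = 0.0939). A second pAbp probe set was unreadable on the second 6 h replicate. dpr3, an immunoglobulin-domain protein read here by a probe set that may also match relatives, gave means of 4011 at 3 h and 2947 at 6 h beside 1924 in DMSO cells (-0.44 ± 0.08). Its 2 other probe sets were dim and not tested, with means of 5.93 and 44.6 at 3 h and of 12.9 and 52.4 at 6 h. Neither was lower at 6 h, so the fall rests on the probe set that may match relatives. Prps, which makes phosphoribosyl pyrophosphate, differed by -0.49 ± 0.09 and CG14464 by -0.37 ± 0.06, and both had a lower mean in DMSO cells than at 6 h.

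For other genes the 6 h mean was the lowest of the 4 groups. trsn, the RNA- and DNA-binding protein translin, gave 1340 and 1217 at 3 h and 857 and 746 at 6 h, with means of 981 in DMSO cells and 1032 at 12 h (-0.66 ± 0.10, adjusted p = 0.0569). Polr2L, a small RNA polymerase subunit, had means of 6248 at 3 h, 4728 at 6 h, 5613 in DMSO cells and 6340 at 12 h (-0.40 ± 0.07). Sln, a monocarboxylate transporter, had the largest of the 12 differences, from 779 and 842 at 3 h to 440 and 397 at 6 h (-0.91 ± 0.18). Pglym78, the glycolytic phosphoglycerate mutase, had means of 1767 and 1360 (-0.37 ± 0.07), and Oat, the mitochondrial ornithine aminotransferase, of 1812 and 1360 (-0.41 ± 0.08). CG13364 differed by -0.65 ± 0.10. For Sln 1 DMSO array (386) lay below both 6 h arrays.

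**Figure D2:**
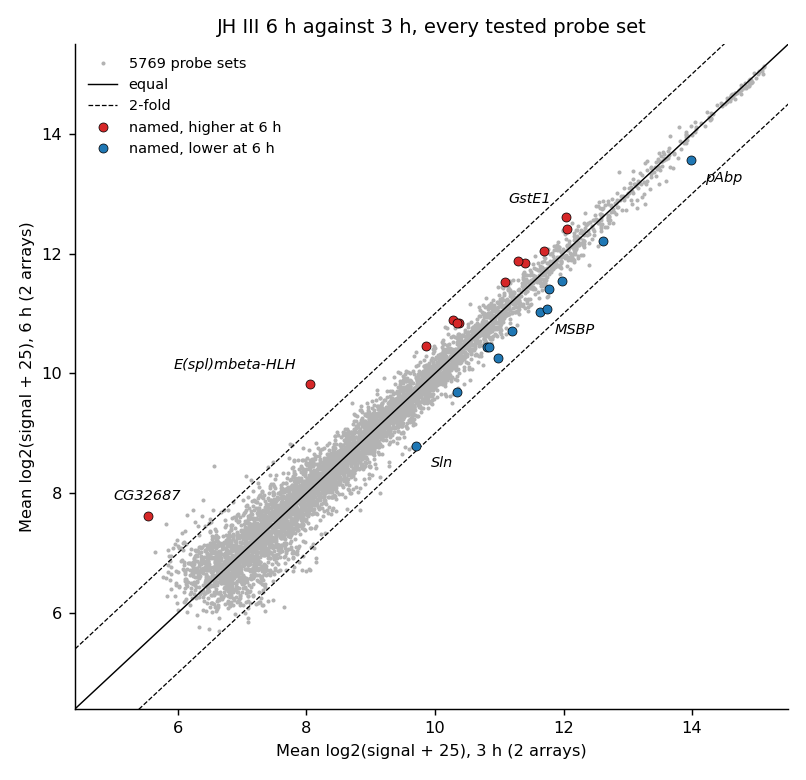
Mean log2(signal + 25) at 3 h (x axis) and 6 h (y axis) for the 5769 tested probe sets, 2 arrays a group. The solid line marks equal levels, the dashed lines 2-fold; red and blue points are the 12 named genes higher and the 12 lower at 6 h, of which E(spl)mbeta-HLH and GstE1 passed the test, and the cloud widens toward dim signals.

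Most probe sets were less than 2-fold apart between the 2 times. The difference lay within 1.5-fold for 5385 of 5769 probe sets (93.3%) and within 2-fold for 5705 (98.9%), with a median of -0.0026 and an SD of 0.31 over probe sets (log2). The stricter measure, a 95% interval that lies inside 2-fold in both directions, held for 4569 probe sets (79.2%), and an interval inside 1.5-fold for 2704 (46.9%). That share followed brightness: with the probe sets ranked by mean signal into equal groups of 1923, 46.7% of the dimmest had an interval inside 2-fold, 91.4% of the middle and 99.4% of the brightest, at median signals of 103, 321 and 1361. For the other probe sets the interval reached past 2-fold in at least one direction, whether or not it also left out 0.

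Arrays from different times differed somewhat more than replicates did. The median absolute log2 difference between single arrays was 0.15 between the 3 h replicates and 0.18 between the 6 h replicates, against 0.19 to 0.21 for the 4 pairs of a 3 h and a 6 h array. The number of probe sets over 2-fold apart was 170 and 193 between replicates and 185 to 218 across times, so the ranges overlap. Between the means of the groups, 64 probe sets were at least 2-fold apart, 37 higher and 27 lower at 6 h, and of these only E(spl)mbeta-HLH passed the test. Their median signal was 92.3, against 321 for all probe sets tested. The lowest was vvl, a POU-domain transcription factor named here after its values were seen, with 164 and 188 at 3 h and 43.4 and 44.1 at 6 h (-1.55, adjusted p = 0.139).

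Genes of the translation apparatus show how narrow the limits were for bright transcripts. All 29 tested cytosolic ribosomal protein genes had an interval inside 2-fold, with differences from -0.21 (RpL7-like) to 0.14 (RpS27A) and a median of -0.01. RpS7 gave 32369 and 34812 at 3 h and 31424 and 36228 at 6 h, a difference of 0.01 with a 95% interval of -0.22 to 0.23. RpS20 (-0.03), RpLP2 (0.01), RpS26 (-0.02), RpS30 (-0.11) and Rack1, a scaffold protein of the small ribosomal subunit (-0.07), were the other brightest probe sets with an interval inside 1.5-fold. RpS7 and these were chosen for that interval, so their narrow limits came with the choice. All 49 tested mitochondrial ribosomal protein genes also had an interval inside 2-fold. Of these, 17 had both 6 h arrays below both 3 h arrays and 5 above, with a median of -0.05 (-0.11 to -0.01 over 6 alternatives), mRpL47 at -0.43 ± 0.14 (adjusted p = 0.259) and mRpS18A at -0.37 ± 0.08 (adjusted p = 0.132). Over all 4725 genes, 1039 lay below and 1048 above, with a median of -0.0028 and 3774 intervals inside 2-fold.

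**Figure D3:**
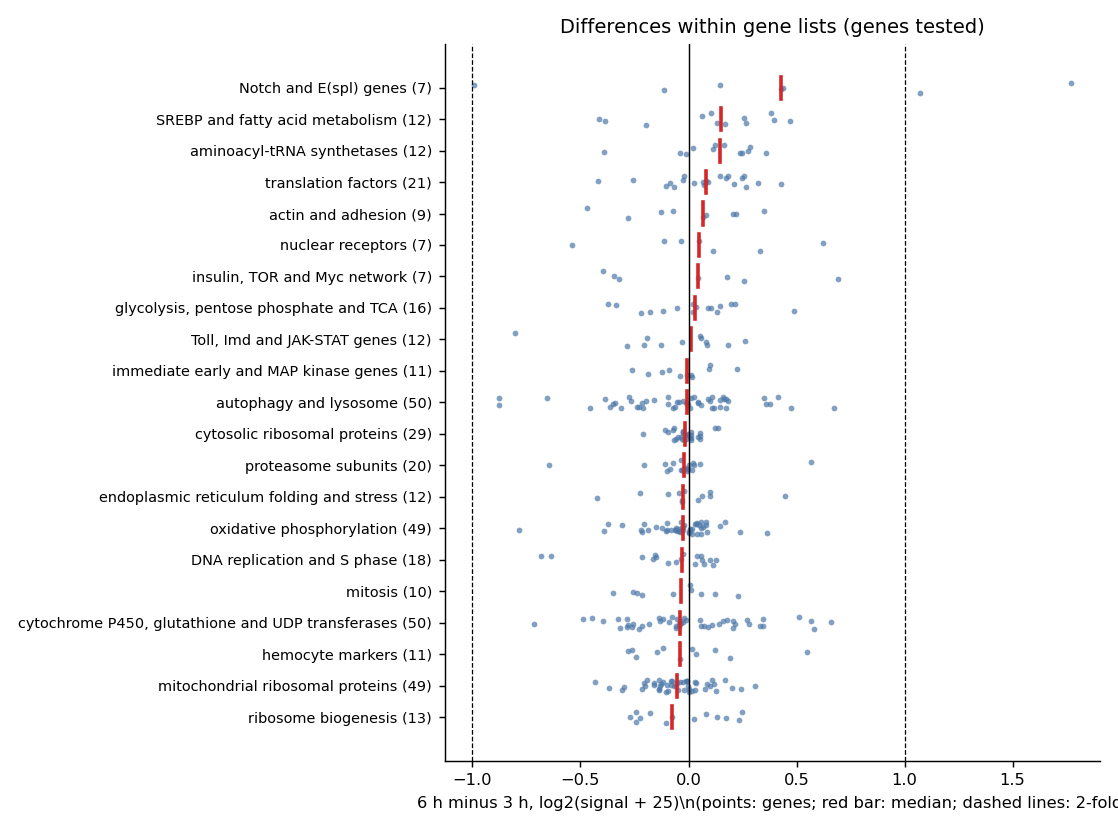
Log2 difference of 6 h minus 3 h (x axis) for each tested gene of the 21 gene lists with at least 7 tested genes, the number tested in parentheses. Points are genes, red bars medians and dashed lines 2-fold; most genes lie between the dashed lines, and E(spl)mbeta-HLH is the point farthest right.

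Among genes of juvenile hormone reception, 4 of the 13 listed were tested and none passed the test. gce gave 379 and 360 at 3 h and 166 and 214 at 6 h, beside 269 and 214 in DMSO cells and 268 and 273 at 12 h. Its difference was -0.89 ± 0.18 (adjusted p = 0.106), with no overlap between 3 h and 6 h. Its paralogue Met was dimmer, with 115 and 33.9 at 3 h and 134 and 145 at 6 h (0.85 ± 0.48, adjusted p = 0.524), and most of that difference came from the lower 3 h array. The coactivator tai differed by -0.04 ± 0.23, with a 95% interval of -0.55 to 0.47. br (broad), a zinc finger factor of the ecdysone cascade on which juvenile hormone acts, gave 126 and 146 at 3 h and 89.0 and 35.9 at 6 h (-0.95 ± 0.37, adjusted p = 0.338). Kr-h1, JhI-21, JhI-26, Fkbp39, usp and ftz-f1 fell in the unreadable stretches of the second 6 h replicate, and JhI-1, Chd64 and Hsp83 were not analysed here. The median of the 4 tested genes was -0.46, and -0.31 without the first 6 h replicate.

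In the Notch list 7 of 19 genes were tested, and 1, E(spl)mbeta-HLH, rose. The other 3 tested genes of the E(spl) complex were E(spl)malpha-BFM, with 35.4 and 33.1 at 3 h and 185 and 48.7 at 6 h (1.07 ± 0.58, adjusted p = 0.498), E(spl)m3-HLH (0.44 ± 0.32, adjusted p = 0.632) and E(spl)m7-HLH (-0.11 ± 0.19, adjusted p = 0.879). The high value of E(spl)malpha-BFM rests on the first 6 h replicate. neur, the ubiquitin ligase that activates Notch ligands, gave 221 and 220 at 3 h and 152 and 61.1 at 6 h (-0.99 ± 0.41, adjusted p = 0.373). H (Hairless), the corepressor of Notch targets, differed by 0.14 ± 0.16. The list's median was 0.43, with 0.14 to 0.44 over 6 alternatives, and 6 of its genes were dim.

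In the detoxification list of 50 tested genes GstE1 alone passed. Of the 25 glutathione S-transferases in it, 6 others had an unadjusted p under 0.05, all lower at 6 h, and none of them passed after adjustment. Over all 4725 genes, 309 were lower and 294 higher at an unadjusted p under 0.05. GstE6 gave 1917 and 1739 at 3 h and 1436 and 1240 at 6 h (-0.45 ± 0.10, adjusted p = 0.132). GstE7 gave 295 and 220 at 3 h and 172 and 122 at 6 h (-0.72 ± 0.25, adjusted p = 0.286). GstD9 differed by -0.26 ± 0.07, GstD7 by -0.32 ± 0.11, GstE3 by -0.33 ± 0.13 and GstD5 by -0.40 ± 0.16. The brightest member, GstD1, gave 14897 and 15153 at 3 h and 13980 and 15299 at 6 h, a difference of -0.04 with a 95% interval of -0.19 to 0.11. None of the 19 cytochrome P450 genes had an unadjusted p under 0.05, and the median of the whole list was -0.04. The glutathione S-transferases were set apart from the rest of the list after their values were seen.

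SREBP and fatty acid genes lay mostly on the higher side at 6 h without any of them passing. Of 12 tested, 8 had both 6 h arrays above both 3 h arrays and 1 below. Over all 4725 genes, 1048 lay above and 1039 below. The list's median of 0.15 ranged from 0.15 to 0.17 over 6 alternatives. FASN1, the fatty acid synthase, gave 4318 and 3808 at 3 h and 5414 and 5278 at 6 h (0.40 ± 0.07, adjusted p = 0.0921). SREBP, the transcription factor that drives fatty acid synthesis genes in flies, gave 2177 and 2360 at 3 h and 3105 and 2824 at 6 h (0.38 ± 0.10, adjusted p = 0.175). Lpin, the phosphatidate phosphatase lipin, differed by 0.47 ± 0.21 (adjusted p = 0.404) and the lipase Lip4 by -0.42 ± 0.14 (adjusted p = 0.273). FASN1 and SREBP were named after their values were seen.

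Translation factors and tRNA synthetases had medians of 0.08 and 0.14, and neither list had a gene that passed. Of 21 translation factors, 8 had both 6 h arrays above both 3 h arrays and 3 below, and the largest differences were eEF1alpha2 (0.43 ± 0.25, adjusted p = 0.540) and pAbp. eIF3 is the complex that brings the small ribosomal subunit to mRNA. Of its 9 tested subunits, 5 had an unadjusted p under 0.05, all higher at 6 h. Over all 4725 genes, 294 were higher and 309 lower at that p. The eIF3 subunits were picked out after their values were seen. eIF3a gave 3597 and 3312 at 3 h and 4277 and 4362 at 6 h (0.32 ± 0.08, adjusted p = 0.159). Of 12 tRNA synthetases, 5 lay above both 3 h arrays and 2 below, with GlyRS at 0.36 and ArgRS at -0.39 ± 0.18 (adjusted p = 0.420). Beside both lists, 1048 of all 4725 genes lay above both 3 h arrays and 1039 below. All 21 translation factors and all 12 synthetases had an interval inside 2-fold. Over 6 alternatives the medians ranged from 0.02 to 0.16 and from 0.13 to 0.18.

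Most other lists were spread around 0, as the plot of list members shows. Oxidative phosphorylation genes (49 tested) had a median of -0.03 and 46 intervals inside 2-fold, and the farthest were ND-20L (-0.79 ± 0.36) and COX7AL (-0.39 ± 0.28), dim paralogues of complex I and complex IV subunits. Proteasome genes (20 tested) had a median of -0.02, with the dim paralogues Rpt4R (-0.64 ± 0.25) and Prosbeta2R2 (0.57 ± 0.41) at the ends. Autophagy and lysosome genes (50 tested) had a median of -0.0075, with Npc2h (-0.88 ± 0.29) and Vha16-4 (-0.88 ± 0.35) farthest from 0. Endoplasmic reticulum genes (12 tested) had a median of -0.02, with the stress sensor kinase Ire1 at 0.45 ± 0.15 and the sensor Atf6 at -0.42 ± 0.29. No gene of these lists passed.

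No growth or signalling gene passed either. In the DNA replication list (18 tested, median -0.03) E2f1, the activator of S phase genes, gave 1175 and 1274 at 3 h and 801 and 755 at 6 h (-0.64 ± 0.13, adjusted p = 0.105), and Psf3 of the GINS complex differed by -0.68 ± 0.33 (adjusted p = 0.437). In the mitosis list (10 tested, median -0.03) the checkpoint gene rod differed by -0.35 ± 0.11 and the kinesin Klp10A by -0.26 ± 0.12. In the insulin, TOR and Myc list (7 tested) the median was 0.04, and -0.19 to 0.05 over 6 alternatives. There foxo differed by 0.69 ± 0.43 and the ribosomal protein kinase S6k by -0.40 ± 0.12 (adjusted p = 0.232). In the immediate early and MAP kinase list (11 tested, median -0.0055) sty (sprouty), a feedback inhibitor of receptor tyrosine kinases, gave 10079 and 10652 at 3 h and 8624 and 8643 at 6 h (-0.26 ± 0.08, adjusted p = 0.259). Among glycolytic and TCA genes (16 tested, median 0.03) phosphofructokinase Pfk differed by 0.49 ± 0.20 and Pglym78 by -0.37. Among ribosome biogenesis genes (13 tested, median -0.08) NHP2 differed by -0.27 ± 0.10 and Ssl by 0.25 ± 0.48.

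The lists of cell identity, immunity and cell structure held no call either. Among 11 hemocyte markers PPO2, a prophenoloxidase, differed by 0.55 ± 0.45 and the matrix protein Tig by -0.28 ± 0.13, while Hml, the clotting protein hemolectin, gave 3815 and 3919 at 3 h and 3927 and 3901 at 6 h (0.02, 95% interval -0.13 to 0.16). In the muscle list sls (titin-like sallimus) had a mean of 31.3 at 3 h, with arrays of 187 and 127 at 6 h (1.68 ± 0.41, adjusted p = 0.159), and Mlc2 differed by -0.38 ± 0.32. Appl (-0.52 ± 0.24) and ChAT (0.11 ± 0.31) were the tested neuronal markers, Lsp2 (0.25 ± 0.29) and Yp1 (-0.11 ± 0.36) the tested fat body markers. The germline genes zpg (-0.22 ± 0.12) and bam (0.13 ± 0.07) were bright at both times. Of the same list, vas, tj and ovo were dim, and osk, aub and piwi were unreadable on the second 6 h replicate. The readable germline markers summed to 8414 and 8769 at 3 h and to 8943 and 8052 at 6 h over 6 probe sets. Of 12 Toll, Imd and JAK-STAT genes nec differed by -0.80 ± 0.45 and the receptor dome by -0.28 ± 0.23, and of 9 actin and adhesion genes cpa by -0.47 ± 0.27 and blistery (by) by 0.35 ± 0.33.

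Smaller lists were measured through few genes. Of 5 amino acid transporters gb (genderblind) differed by -0.96 ± 0.31 (adjusted p = 0.259) and path (pathetic) by 0.46 ± 0.12 (adjusted p = 0.185). Of 7 nuclear receptors svp (seven-up) differed by 0.62 ± 0.28 and kni (knirps) by -0.54 ± 0.28. Of 4 heat shock and chaperone genes the cochaperone stv (starvin) differed by 0.45 ± 0.18 and DnaJ-1 by -0.14 ± 0.09. Of 4 ecdysone-responsive genes vri differed by 0.39 ± 0.20 and Eip63E by 0.24 ± 0.27, and of 4 genes of hormone synthesis and turnover Hmgs, the HMG-CoA synthase, by 0.17 ± 0.07 and Pmvk by -0.17 ± 0.23. Of 6 apoptosis genes Fadd differed by 0.26 ± 0.34 and Debcl by 0.20 ± 0.08. None of these passed.

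None of the 24 early responders passed the test of 6 h against 3 h. They were chosen among probe sets with 1 symbol and an adjusted p under 0.05 for the mean of 3 h and 6 h against DMSO. Of those, the 12 with the largest rises and the 12 with the largest falls were taken. The choice was on the mean and not on the difference of the times. It used the same estimate of spread as the intervals, so it favoured narrow intervals. Of these 24 probe sets, 1 had an unadjusted p under 0.05 and 14 had a 95% interval inside 2-fold. The differences ran from -0.66 to 0.83, with medians of -0.20 for the risers and 0.04 for the fallers, and 9 of the 12 risers were lower at 6 h. The count of 14 was 9 without the first 3 h array, and also without the first or the second 6 h array.

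Among the risers bun (bunched), a TSC-22 family transcriptional regulator, gave 837 and 854 at 3 h and 805 and 806 at 6 h, against a mean of 236 in DMSO cells (difference between times -0.07, 95% interval -0.33 to 0.20). Pkc98E, a protein kinase C, gave 178 and 323 at 3 h and 219 and 175 at 6 h, against 38.1 and 30.0 in DMSO cells, and its interval was -0.96 to 0.43. The 2 probe sets of lncRNA:CR42862 differed by -0.20 ± 0.12 and 0.22 ± 0.15, in opposite directions and within their errors. Atg10, an autophagy conjugation enzyme, had the largest difference of the risers, from 429 and 369 at 3 h to 236 and 252 at 6 h (-0.66 ± 0.30, adjusted p = 0.414).

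Among the fallers PCB, the pyruvate carboxylase, gave 511 and 401 at 3 h and 392 and 402 at 6 h, against 1966 and 2049 in DMSO cells (-0.18 ± 0.19). ND-B12, a complex I subunit of the respiratory chain, gave 1711 and 1514 at 3 h and 1654 and 1574 at 6 h, a difference of 0.0033 with an interval of -0.21 to 0.22. Hsp68, an inducible heat shock protein, gave 665 and 713 at 3 h and 675 and 678 at 6 h (-0.02, interval -0.22 to 0.17). CG5254 was the gene with an unadjusted p under 0.05, with 1383 and 1488 at 3 h and 1067 and 1200 at 6 h (-0.34 ± 0.09, adjusted p = 0.175). CG11368 had the largest difference (0.83 ± 0.46), and its 6 h arrays of 36.6 and 129 lay far apart.

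**Figure D4:**
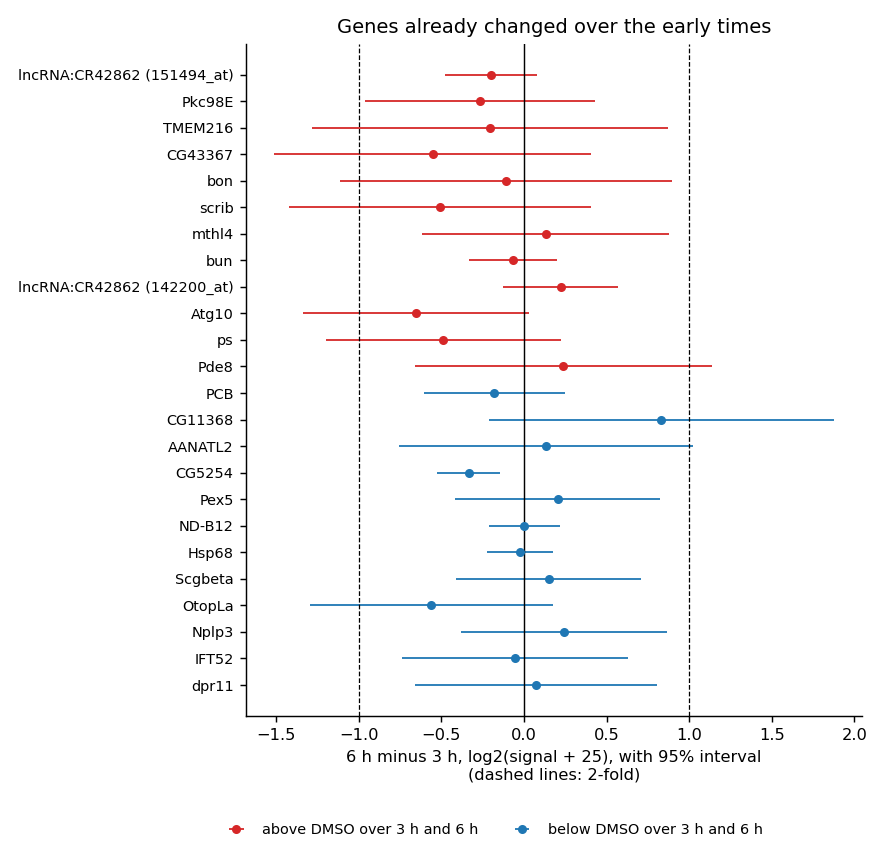
Log2 difference of 6 h minus 3 h (x axis) with its 95% interval for the 24 probe sets farthest from DMSO over the mean of 3 h and 6 h. Red points lay above DMSO and blue below; dashed lines mark 2-fold, 14 intervals lie inside them, and CG5254 is the one whose interval leaves out 0.

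Over all 1134 probe sets called for the early mean against DMSO (640 higher and 494 lower), none passed for 6 h against 3 h, and 1084 (95.6%) had an interval inside 2-fold. An unadjusted p under 0.05 was found for 260 of them (22.9%), against 12.5% of all tested. The 1134 probe sets were chosen with the same estimate of spread as these intervals and p-values. That choice favoured narrow intervals and small p-values, and its part in the 95.6% and the 22.9% was not tested. These probe sets were brighter, with a median signal of 909 against 321, and among all probe sets the share with an unadjusted p under 0.05 also went with brightness (5.67% in the dimmest group, 11.4% in the middle one and 20.3% in the brightest).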

How the data were processed

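The table was deposited as MAS5 signal values (an intensity on a linear scale, 1 value per probe set and array), per the submitters' processing notes. The MAS5 version and scaling target are not given in the sources used here. From these signals, 25 was added and log2 taken. Array controls were left out, as were values under 0.1 or over 1e+05 and the stretches they mark on the second 6 h replicate. Probe sets whose mean log2 value over the arrays lay under the 40th percentile (signal 61.5) were left out, which left 8380, of which 2611 unreadable ones were dropped. Names came from the array's annotation updated through the RefSeq gene table (12443 probe sets with 1 symbol, 327 with several, 1196 with none; 12394 found in RefSeq).

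limma 3.58.1 in R 4.3.3 fitted a mean per group over the 8 arrays, with eBayes (trend) and Benjamini-Hochberg adjustment over all 5769 probe sets. Intervals are 95%. Tested on simulated data, the fit recovered 15, 33, 38 and 48 of 50 differences of 0.5, 1, 1.5 and 2 (log2) among 5769 probe sets for 6 h against 3 h. All sizes were planted in the same simulated set, where the many calls ease the Benjamini-Hochberg cutoff. The counts therefore do not give the recovery on the real arrays, where 2 probe sets were called. Named genes were 12 higher and 12 lower at 6 h, with 1 symbol and groups that do not overlap. They were taken by size for those that passed and then by smallest p, so some larger differences were left out. Also named were all tested genes of hormone reception and the 2 largest differences of each list. The 24 early responders and the 6 brightest probe sets with an interval inside 1.5-fold were added. A gene's brightest probe set stands for it in a list. The members and lists were chosen with earlier results of these data known. No shared effect of the replicate number was seen: the deviations of same-numbered 3 h and 6 h arrays correlated at -0.05, and at -0.05 to 0.07 over all groups. This does not show whether same-numbered arrays came from the same culture. No sequences are shown.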

Additional observations from a re-analysis of the deposited data

How the results depend on the processing

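E(spl)mbeta-HLH passed under all 19 alternatives and GstE1 under 6. The count of 2 calls was 12 after quantile normalization (6 higher), 8 with a constant of 100 (4 higher), 33 with a filter at the 60th percentile (18 higher, 15 lower, 3490 probe sets tested) and 5 (2 higher) with probe sets readable on 1 of the 6 h arrays. It was 1 with median centring, a constant of 1, no filter, the 4 arrays alone, the 6 JH III arrays, calls of at least 1.5-fold and the replicate block, and 1 to 2 when an array was left out, with 1 of the 2 lower at 6 h without either 6 h array. It stayed at 2 without the variance trend, where CG32687 passed (adjusted p = 0.0085) and GstE1 did not (0.365). Under the 60th percentile filter, 23 of the 24 named genes passed (CG32687 was too dim), with a highest adjusted p of 0.0481; fewer probe sets tested is part of that setting, and the cause of the other shifts was not tested. The share of intervals inside 2-fold was 67.5% to 97.2% (79.2% as reported). The early responders with an interval inside 2-fold numbered 9 with a constant of 1, 23 with a constant of 100, 8 with the 60th percentile filter, where fewer of them remain, and 9 to 18 when an array was left out, against 14. No named gene among the 24 changed sign, but they were named for groups that do not overlap, so leaving out an array could not change it. Medians of lists near 0, such as those of cytosolic ribosomal proteins (-0.09 to 0.07) and hemocyte markers (-0.13 to 0.01), changed sign under some of 6 alternatives. That of the insulin, TOR and Myc list (-0.19 to 0.05) kept its sign under only 2 of 6. Dim probe sets had wider intervals.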

Other observations

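Genes in the unreadable stretches of the second 6 h replicate have a value at 6 h from the first replicate alone. When such probe sets were let into the limma fit, with the lone 6 h array assumed to vary like the other groups, Oda, aqz and Hsp26 were added to the calls, all lower at 6 h. They lie outside the comparison of the report, and only their values are given. Oda, the ornithine decarboxylase antizyme, which restrains polyamine synthesis, gave 3913 and 3929 at 3 h and 1994 on the readable 6 h array (a log2 difference of -0.97). aqz gave 3227 and 3763 at 3 h and 1750 at 6 h (-0.98). Hsp26, a small heat shock protein, gave 3560 and 3748 at 3 h and 2157 at 6 h (-0.75). These 3 values have no second 6 h array behind them.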
